A study of Mus musculus with 7 samples.

Results

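The cells described here are the B cells of 3 single-cell libraries of CD45+ leukocytes from the inflamed central nervous system of mice, 161 of the 7076 barcodes kept in those libraries and of the 13922 deposited in the series. They were chosen by measured transcripts. A barcode was a member if it had at least 1 unique molecular identifier (UMI, 1 captured transcript) of Cd79a and at least 1 of Cd79b or Ms4a1, no more than 1 UMI over the T cell genes Cd3d, Cd3e and Cd3g, no more than 60 UMIs of Lyz2 and C1qb per 10000 UMIs, and no more than 1 UMI of Siglech. Cd79a and Cd79b are the signalling chains of the B cell receptor, and Ms4a1 is the surface protein CD20. Levels of these genes in the members describe the selection. They stayed in the fits over all genes, and nothing is read from their results.

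B cells carry a membrane immunoglobulin as their antigen receptor, made of a heavy chain and a kappa or lambda light chain. Naive cells use the IgM and IgD heavy chains, and class switching replaces them with IgG, IgA or IgE. Plasmablasts and plasma cells secrete the antibody, and IgA and IgM are joined into polymers by the J chain. B cells also take up antigen through their receptor and present it to CD4 T cells on MHC class II. In the central nervous system of mice with autoimmune encephalomyelitis they are a minor population, known as antigen-presenting cells and as a source of antibody and of regulatory and inflammatory cytokines.

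The groups were 1 library of LAG3-deficient mice (Lag3KO_CD45 1) and 2 libraries of control mice (WT_CD45 1 and WT_CD45 2), all on the B6 background and all given MOG35-55 peptide to induce experimental autoimmune encephalomyelitis (EAE), a model of multiple sclerosis. The labels give 5 age- and sex-matched mice per group, taken with matching disease scores at the height of disease. They give bead enrichment of CD45+ cells and also call the cells sorted. They call the deficient allele Lag3Flox, and no Cre line, deleted exons or ages are stated there. Nothing says that the 2 control libraries came from separate mice, so p-values rest on the spread between these libraries, pooled over genes, which may be technical. The 4 CD4-enriched libraries of the series held 3 and 2 such barcodes in Lag3KO and 5 and 1 in WT, and they do not enter the comparisons.

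Depth was similar in the 3 libraries, at 16050069 to 18940186 UMIs in 2239 to 2517 barcodes. Lag3 itself, read by its 3′ tags, had 2 UMIs in Lag3KO_CD45 1, 304 in WT_CD45 1 and 4 for the library labelled WT_CD45 2, so the last goes against its label and every direction below that uses it rests on that label. In the B cells Lag3 had 0 UMIs in all 3 libraries. With 65, 41 and 55 barcodes, a count of 0 (3 counts of the total) allows a share of barcodes with a Lag3 UMI of up to 4.62% in Lag3KO_CD45 1, 7.32% in WT_CD45 1 and 5.45% for the library labelled WT_CD45 2. At about 3000 UMIs a barcode this limits barcodes with a UMI and not cells that express the gene. Of the barcode sequences, 28 occurred in more than 1 of the 3 libraries (7 to 11 per pair of libraries), and 0 of them were members in both.

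B cells made up 2.58% of kept barcodes in Lag3KO_CD45 1 (65 of 2517, 95% Clopper-Pearson interval 2.00 to 3.28), 1.77% in WT_CD45 1 (41 of 2322, 1.27 to 2.39) and 2.46% in the library labelled WT_CD45 2 (55 of 2237, 1.86 to 3.19). The Lag3KO library was the highest and the library labelled WT_CD45 2 was close to it, with WT_CD45 1 below both. The Lag3KO share was 0.47 percentage points above the WT mean of 2.11% ± 0.49 (SD, n = 2), which is less than the spread between the WT libraries (exact two-sided permutation test, p = 0.667, where 1 library against 2 cannot go below 0.333). These intervals cover counting error only, and sorting or bead enrichment can set the share.

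The share also depends on where the deposited matrices stop. The smallest deposited barcode held 2324 UMIs in Lag3KO_CD45 1, 2443 in WT_CD45 1 and 2341 for the library labelled WT_CD45 2, and the smallest B cell held 2342, 2447 and 2402. Under 3000 UMIs lay 44.6%, 36.6% and 45.5% of B cells, against 30.5%, 20.2% and 28.3% of T barcodes and 4.08%, 2.49% and 3.17% of myeloid barcodes, in the same order of libraries. B cells thus sat near the lower end of depth in each library, with medians of 3094, 3484 and 3210 UMIs. B cells below that end, if there were any, are not analysed here.

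**Figure D1:**
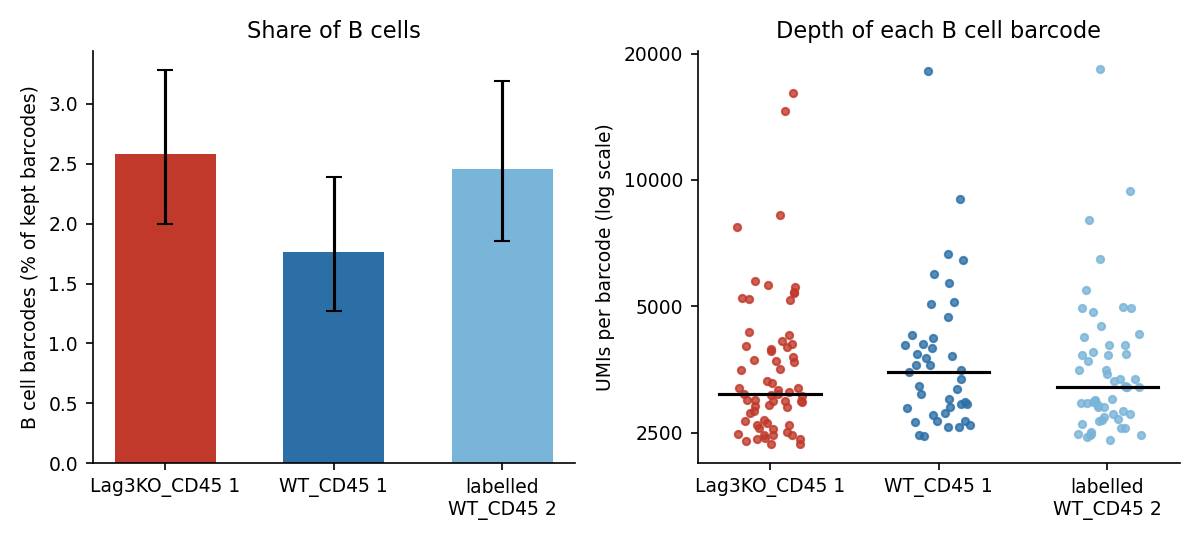
Left, B cells as a percentage of kept barcodes in each library, with 95% Clopper-Pearson intervals. Right, UMIs of each B cell barcode on a log scale, with the median as a line. The Lag3KO share of 2.58% lies above 1.77% in WT_CD45 1 and 2.46% for the library labelled WT_CD45 2, with overlapping intervals, and 4 barcodes lie above 10000 UMIs.

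As a description of the selection, median Cd79a UMIs were 7 in Lag3KO_CD45 1, 9 in WT_CD45 1 and 7 for the library labelled WT_CD45 2, and only 3 of 161 members sat at the limit of 1 UMI. The highest Lyz2 and C1qb level inside the limit of 60 per 10000 was 58.6, and the lowest outside it among barcodes with both B cell markers was 80.4. Of 307 barcodes with both markers, 146 were left out. Of those, 121 had 2 or more Cd3 UMIs, and their median depth was 6656 to 11220 UMIs, more than that of the members; 61 exceeded the myeloid limit and 13 the Siglech limit.

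Among genes that the rule did not use, the 20 with the highest ratio of B cells to all other kept barcodes, taken in the library where that ratio was lowest, describe the population. They include the transcription factor Ebf1 (951 CPM in Lag3KO_CD45 1, 654 in WT_CD45 1 and 936 for the library labelled WT_CD45 2, where CPM is UMIs of a gene per 1000000 UMIs of the summed barcodes) and the octamer co-activator Pou2af1 (197, 283 and 175 CPM). The IgM receptor Fcmr, the BAFF receptor Tnfrsf13c, the adaptor Bank1 and the receptor-like protein Fcrl1 are also among them, as are 7 immunoglobulin constant genes and Jchain, Mzb1, Vpreb3, Scd1, Gm43603 and Gm43291. Jchain and Igha had a UMI in only 11 and 22 of the 161 members, so their ratios describe few of them. The lowest of the 20 ratios was 22.9, for Ighd. Since the barcodes were selected as B cells these ratios carry no test.

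Of these 20 genes and the 3 of the rule, 9 had a promoter in the RefSeq table (build GRCm38.p6; 250 bases before to 50 after the start). The octamer ATGCAAAT, the site read by OCT proteins with the co-activator encoded by Pou2af1, and CCCNNGGG, the core of the site read by EBF1, were searched on both strands without regard to overlap. Each was found in 1 of the 9 genes, against 1.74% and 13.7% of the 32851 promoters in the table. They are shown because both factors are among the defining genes of these cells. Capitals mark the match, which for Vpreb3 is the octamer on the opposite strand. The promoter window of Vpreb3, which encodes a chaperone of the assembling immunoglobulin, lies at chr10:75948050-75948349 on the plus strand and that of Bank1 at chr3:136326017-136326316 on the minus strand. These are matches of letters and not measured binding sites.
Vpreb3: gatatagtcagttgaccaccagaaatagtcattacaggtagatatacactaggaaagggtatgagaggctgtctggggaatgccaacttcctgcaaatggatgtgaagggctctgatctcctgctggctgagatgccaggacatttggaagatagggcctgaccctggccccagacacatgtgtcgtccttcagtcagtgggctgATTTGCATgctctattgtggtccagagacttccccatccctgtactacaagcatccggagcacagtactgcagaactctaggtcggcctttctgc
Bank1: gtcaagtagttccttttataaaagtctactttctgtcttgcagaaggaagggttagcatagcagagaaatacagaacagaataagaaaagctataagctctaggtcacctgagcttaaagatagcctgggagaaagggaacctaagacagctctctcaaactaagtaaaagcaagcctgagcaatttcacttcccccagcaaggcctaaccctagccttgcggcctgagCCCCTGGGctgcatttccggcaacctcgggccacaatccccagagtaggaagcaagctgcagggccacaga

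RNA of other cell types was low but not absent. T cell markers summed to 174 CPM in B cells of Lag3KO_CD45 1, 189 in WT_CD45 1 and 99.3 for the library labelled WT_CD45 2, against 5998, 4775 and 6149 CPM in T barcodes. They include Cd3d, Cd3e and Cd3g, which the rules limit in B cells and require in T barcodes. Part of this contrast was therefore set in advance. The 19 measured myeloid markers, which include Lyz2 and C1qb of the rule, summed to 6960, 5582 and 7072 CPM, against 69845, 67293 and 73096 CPM in myeloid barcodes, with Plac8 (2061, 1916 and 2037 CPM) and Apoe (2021, 1892 and 1669 CPM) among the highest in B cells. Of the NK markers 6 of 9, of the neural and vascular markers 7 of 10 and of the red cell markers 3 of 5 were at 0 UMIs in all members. Microglia markers summed to 94.3 to 127.6 CPM and neutrophil markers to 37.8 to 135.6 CPM. There were 6.10 Apoe UMIs per UMI of the myeloid gene Tyrobp in B cells of Lag3KO_CD45 1, 7.13 in WT_CD45 1 and 3.24 for the library labelled WT_CD45 2, against 3.35, 3.65 and 4.91 in myeloid barcodes and 2.36, 1.32 and 1.99 in T barcodes. The ratio was above the myeloid one in the first 2 libraries and below it in the last.

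The immunoglobulin transcripts showed a mostly unswitched population in all 3 libraries. Members were called unswitched or switched by the larger sum (at least 2 UMIs), Ighm with Ighd or the IgG genes with Igha. Switched members were then split into IgG and IgA by the larger count. In this way 122 of 161 members used IgM or IgD, 25 IgG, 11 IgA and 3 had no call. Ighe had 0 UMIs. The IgM or IgD members include 2 high-depth barcodes with proteases of myeloid precursors (below). These had 5 Ighm UMIs in Lag3KO_CD45 1 and 3 in the library labelled WT_CD45 2, without a light chain call. Both stay in the IgM or IgD counts and in the Ighd shares. Switched members were 24.6% in Lag3KO_CD45 1 (16 of 65, 95% Clopper-Pearson interval 14.8 to 36.9), 9 of 41 in WT_CD45 1 (10.6 to 37.6%) and 11 of 55 in the library labelled WT_CD45 2 (10.4 to 33.0%). These intervals are over cells of single libraries, they overlap, and the shares were not tested between genotypes. IgG members were 13 in Lag3KO_CD45 1 and 6 in each WT library, and IgA members were 3, 3 and 5. At least 2 UMIs of Ighg2b were found in 18 members, of Ighg2c in 9, of Ighg1 in 7 and of Ighg3 in 4.

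IgD marks mature naive cells. Among the IgM or IgD members, 24 of 46 in Lag3KO_CD45 1 had an Ighd UMI, 9 of 32 in WT_CD45 1 and 22 of 44 in the library labelled WT_CD45 2. The Lag3KO library and the library labelled WT_CD45 2 were alike, and WT_CD45 1 was lower. T barcodes, by rule without Cd79a and Ms4a1, give the level outside B cells: Ighd had a UMI there in 0.256%, 1.22% and 0.202% (median depths 4058, 4133 and 3644 UMIs, against 3094, 3484 and 3210 in B cells). Ighm had a UMI in 47 of 65, 32 of 41 and 47 of 55 B cells, against 32.3%, 35.1% and 34.7% of T barcodes; thinned to 2000 UMIs the T barcode shares were 13.8%, 16.8% and 18.8%.

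Light chain shares had overlapping intervals. Of 156 members with a light chain call (at least 5 UMIs), lambda was the larger in 12.7% in Lag3KO_CD45 1 (8 of 63, 5.65 to 23.5), 14.6% in WT_CD45 1 (6 of 41, 5.57 to 29.2) and 15.4% in the library labelled WT_CD45 2 (8 of 52, 6.88 to 28.1). Iglc2 and Iglc3 are near-identical copies, so the split between them is uncertain, and the calls used their sum with Iglc1. Variable gene UMIs were few, 48 over all members.

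**Figure D2:**
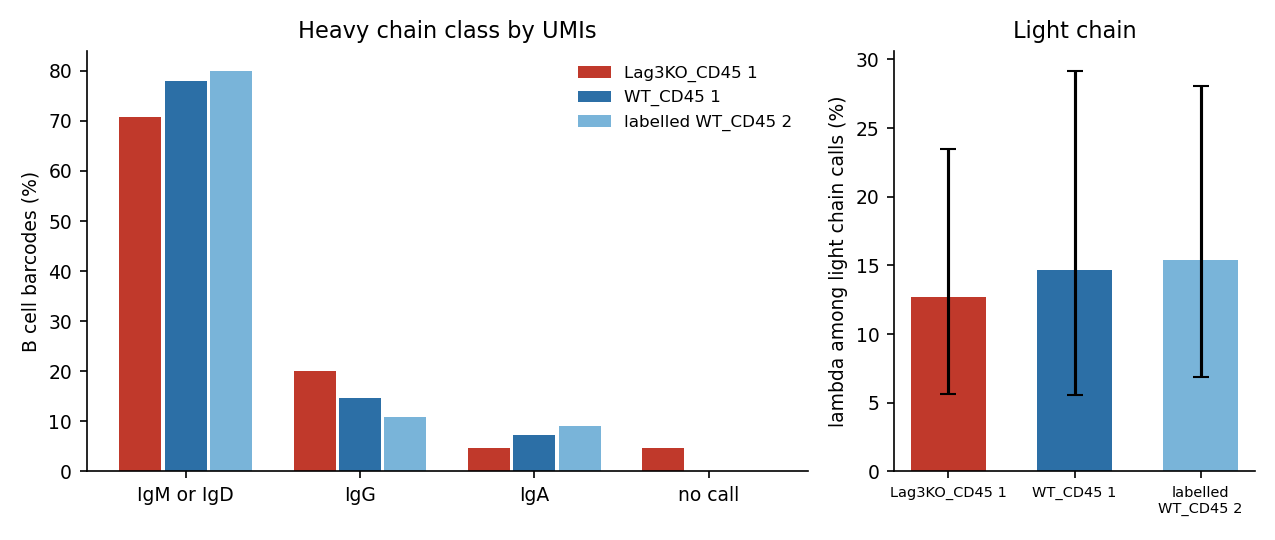
Left, the percentage of B cell barcodes in each library by heavy chain class, called from UMIs as in the text. Right, the percentage of lambda among barcodes with a light chain call, with 95% Clopper-Pearson intervals. IgM or IgD holds 46 of 65 barcodes in Lag3KO_CD45 1, 32 of 41 in WT_CD45 1 and 44 of 55 in the library labelled WT_CD45 2, and lambda lies between 12.7% and 15.4%.

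Switched members differed from IgM or IgD members in few genes other than the heavy chains. Leaving out the barcodes that stood apart (below), 539 genes had at least 100 UMIs, and 4 were at least 2-fold lower in switched members in every library, namely Ighm, Ighd, Cd72 and Foxp1. Foxp1, a transcription factor of mature naive B cells, had 87.0 CPM in switched and 388 CPM in unswitched members of Lag3KO_CD45 1, 71.8 and 243 CPM in WT_CD45 1, and 27.8 and 425 CPM in the library labelled WT_CD45 2. Cd72, an inhibitory co-receptor, had 104 and 233 CPM, 108 and 275 CPM, and 55.5 and 139 CPM. Only Igha was at least 2-fold higher in all 3. Ighm, Ighd and Igha UMIs define the 2 groups of members, so the directions of these genes were set in advance. The class II gene Cd74 differed little, at 12374 and 13749 CPM, 15051 and 15129 CPM, and 16356 and 14577 CPM. Foxp1 rested on 5, 2 and 1 UMIs in switched members. Cd72 had 43, 37 and 24 UMIs over all members of the same libraries, so its levels in switched members rest on few UMIs too. These comparisons carry no test.

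The 4 barcodes above 10000 UMIs and 2 antibody-secreting barcodes, 1 of which is both, held most of several transcripts. In WT_CD45 1 a barcode of 18224 UMIs had 534 Igha, 249 Jchain and 2657 Igkc UMIs, which is 88.3%, 96.5% and 64.7% of those genes in the B cells of its library, with 110 Mzb1 and 16 Xbp1 UMIs and 22 UMIs of lambda variable genes. In the library labelled WT_CD45 2 a barcode of 6491 UMIs had 515 Igha, 311 Jchain and 2045 Igkc UMIs, 94.5%, 99.7% and 59.2% of the library's. Lag3KO_CD45 1 had no such barcode: its highest Igha count was 10 UMIs and its highest Jchain count 8. These are single barcodes, and their number was not tested between genotypes.

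The other barcodes of high depth were mixed. One in Lag3KO_CD45 1 (14594 UMIs) and one in the library labelled WT_CD45 2 (18329 UMIs) had 1 Cd79a UMI each with 84 and 82 UMIs of Prtn3, 106 and 71 of Elane and 67 and 19 of Ctsg, proteases of neutrophil and monocyte precursors. Another in Lag3KO_CD45 1 (16088 UMIs) had 15 Cd79a, 73 Igkc and 9 IgG UMIs together with 58 of Ccl17, 19 of Ccl22, 26 of Ccr7 and 14 of Fscn1, which mark migratory dendritic cells. The rule admits all 3. Scrublet, which scores barcodes by their likeness to simulated doublets, removed none of the 65 members of Lag3KO_CD45 1, and the members it removed in the WT libraries were the 2 secreting barcodes.

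**Figure D3:**
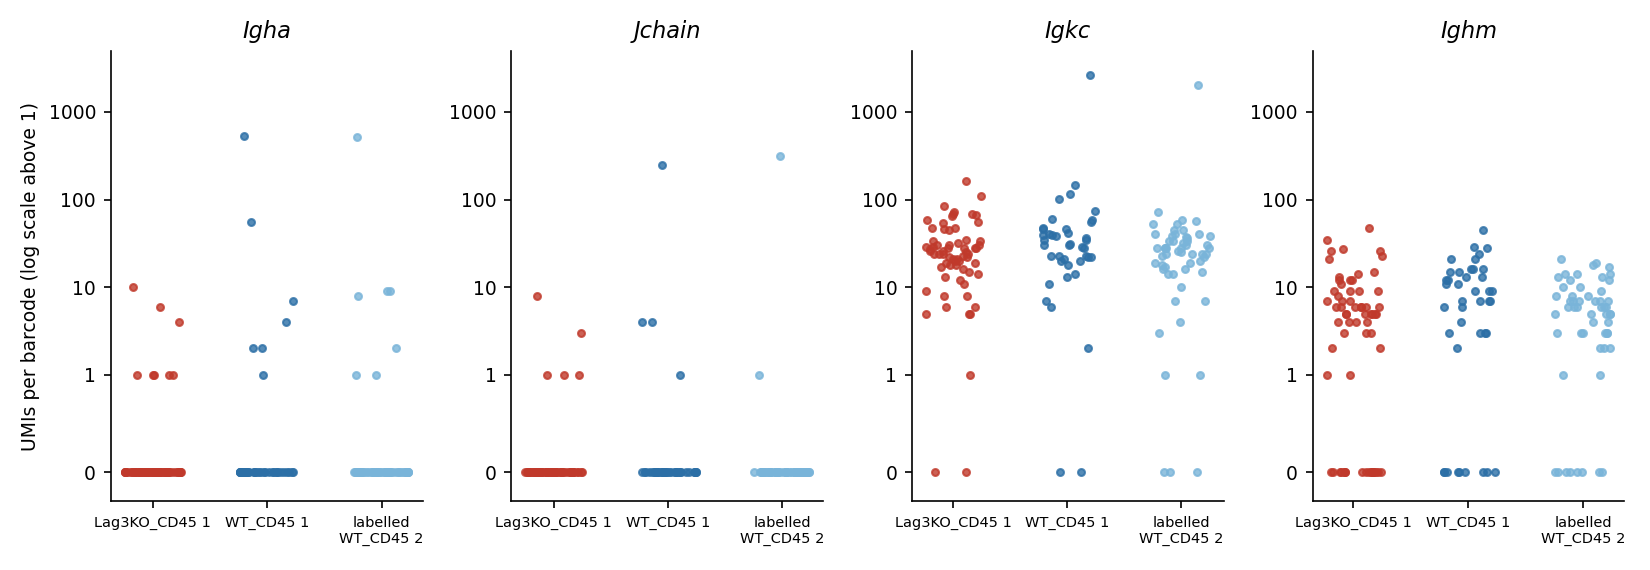
UMIs of Igha, Jchain, Igkc and Ighm in each B cell barcode, by library, on an axis that is logarithmic above 1. A barcode of WT_CD45 1 and another of the library labelled WT_CD45 2 lie above 500 Igha UMIs, while no barcode of Lag3KO_CD45 1 exceeds 10, and the Ighm values overlap in the 3 libraries.

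Lag3KO B cells were set against WT B cells by summing UMIs per library, which asks whether LAG3 deficiency changes the transcripts of a cell in which Lag3 itself was not detected. With all members, Igha, Igkc, Jchain and Xbp1 were lower in Lag3KO, and the chemokines Ccl17, Ccl5 and Cxcl10 were higher. Of 2656 genes tested with edgeR's quasi-likelihood test, 36 were called at a Benjamini-Hochberg adjusted p under 0.05, which is 1.36%, 10 higher and 26 lower in Lag3KO. The fit has 1 residual degree of freedom, which the WT pair supplies, and the single Lag3KO library is assumed to vary alike. The test pools the spread over genes, so the WT spread of a gene itself enters its p only in part. Lag3KO lay beyond both WT libraries in 34 of the 36 genes, and between them in Rpl35 and Rps28. Over all 2656 tested genes it lay above both in 40.7% and below both in 27.3%. The 36 genes were picked for their difference, so the count of 34 adds no support. In 16 of the 36 genes a single barcode held at least 25% of all UMIs, and in 10 at least 50%. Without the high-depth and secreting barcodes Igkc and Xbp1 were not called (log2 differences -0.02 and -0.78). Jchain (0.88), Ccl5 (-0.73) and Cxcl10 (-3.11) turned sign and were not called, and Ccl17 fell under the filter on low counts. Igha was still called (-1.49), as were Malat1 and Rps27rt, both lower in Lag3KO. DESeq2 called 3 (Igha, Igkc and Jchain), so in the gene lists below without these genes its count was 0 as well. At an unadjusted p under 0.05 edgeR gave 176 genes.

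Igha (chr12:113254830-113260236, minus strand, GRCm38), the IgA heavy chain, had 98.7 CPM in Lag3KO_CD45 1, against 3566 in WT_CD45 1 and 2576 for the library labelled WT_CD45 2 (log2 difference -5.02 ± 0.24 SE). Jchain had 55.3 CPM in Lag3KO_CD45 1, against 1521 and 1475 in the WT libraries (-4.81 ± 0.32). Igkc, the kappa light chain, had 7986 CPM in Lag3KO_CD45 1, against 24212 and 16318 (-1.41 ± 0.08). Lag3KO lay below both WT libraries in all 3 genes. Without the 2 secreting barcodes the levels were 98.7 CPM in Lag3KO_CD45 1, against 469 and 146 CPM for Igha, 55.3 against 59.4 and 4.88 CPM for Jchain, and 7986 against 9581 and 6862 CPM for Igkc.

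Without the high-depth and the secreting barcodes, Igkc (-0.02) and Jchain (0.88) were no longer called, and Igha was (-1.49 ± 0.39, edgeR adjusted p = 0.0224), though 1 barcode in WT_CD45 1 held 55 of the 71 Igha UMIs left there. Xbp1, a transcription factor of plasma cells, had 31.6 CPM in Lag3KO_CD45 1, against 118 and 132 in the WT libraries (-2.04 ± 0.53), and it too was not called without those barcodes (-0.78, adjusted p = 0.96). With all members, Jchain and Xbp1 of 7 tested plasma cell genes were called, 1 had a positive and 6 a negative log2 difference, and the median was -1.46. Over all genes 1.36% were called, 1345 of 2656 were negative and the median was -0.0062. In each of the 7 genes a single barcode held 15.7% to 53.3% of the UMIs. Signs and median of the list without the high-depth and secreting barcodes are not given here. Mzb1, a chaperone of antibody assembly, had 762 CPM in Lag3KO_CD45 1, against 1373 and 648 (edgeR adjusted p = 0.731). Rrbp1, a ribosome-binding protein of the rough endoplasmic reticulum, was still called (43.4 CPM in Lag3KO_CD45 1, against 183 and 156 in the WT libraries; -2.01 ± 0.46, and -2.19 ± 0.58 without them). Iglv1, Ssr2 and Rexo2 were also lower in Lag3KO with all members and not called without those barcodes; Iglv1 had 0 UMIs in Lag3KO and 80.8% of its UMIs in 1 barcode.

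The genes higher in Lag3KO were mostly those of single barcodes. Ccl17, a chemokine of dendritic cells, had 237 CPM in Lag3KO_CD45 1, against 11.8 and 4.73 in the WT libraries (4.74 ± 0.58), with 92.1% of its UMIs in 1 barcode. Ctsg had 264.5 CPM in Lag3KO_CD45 1, against 0 and 89.8, and Elane 418 CPM against 0 and 336; each was found in 1 barcode of Lag3KO and 1 of the library labelled WT_CD45 2. The chemokine Ccl5 had 683 CPM in Lag3KO_CD45 1, against 306 and 147 (1.55 ± 0.30), with 138 of 173 Lag3KO UMIs in 1 barcode, and its sign turned without the high-depth barcodes (-0.71). Chil3 (201 against 41.3 and 56.7 CPM) and Cxcl10 (158 against 0 and 70.9 CPM) turned likewise, to -1.24 and -3.09. Fabp5, a fatty-acid binding protein, had 122 CPM in Lag3KO_CD45 1, against 11.8 and 28.4, and fell under the filter on low counts without them.

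Among the genes higher in Lag3KO, 3 were spread more widely or were still called. Tmsb4x, the actin-binding thymosin beta 4, had 17864 CPM in Lag3KO_CD45 1, against 12354 and 13600 (0.39 ± 0.08), and Cd52, a surface glycoprotein of lymphocytes, had 5720 CPM against 3784 and 4179 (0.45 ± 0.12). All members had UMIs of both. Neither was called without the high-depth and secreting barcodes (adjusted p = 0.696 and 0.175, log2 differences 0.19 and 0.41). Trbc2, a T cell receptor constant gene, had 114 CPM in Lag3KO_CD45 1, against 11.8 and 37.8, with 59.0% of its UMIs in 1 barcode. It was called with and without the high-depth and secreting barcodes (2.04 ± 0.54 and 2.07). Of the 10 alternatives that tested Trbc2, 5 called it, and removing the secreting barcodes alone did not (1.96).

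**Figure D4:**
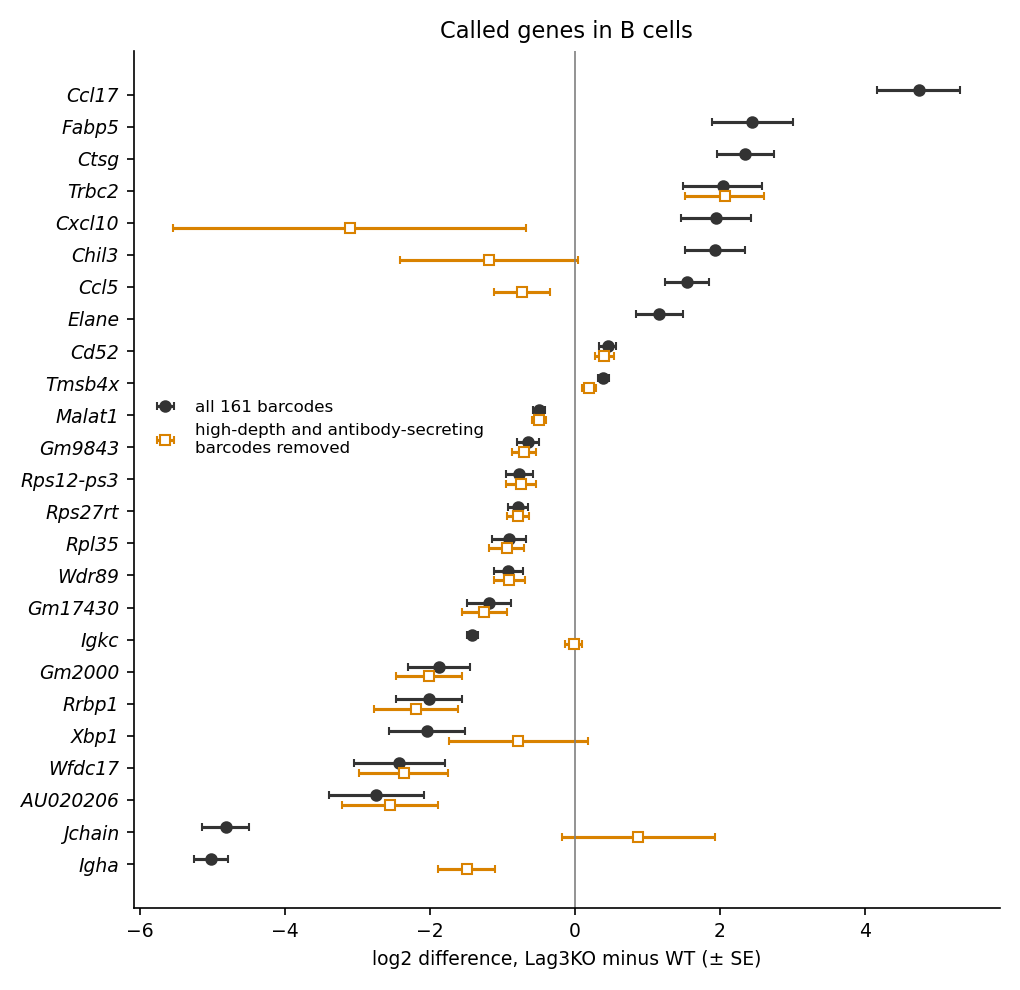
Log2 difference of Lag3KO minus WT (± SE) for the 25 named called genes, with all 161 barcodes (filled circles) and with the high-depth and antibody-secreting barcodes removed (open squares; none where the gene fell under the filter on low counts). Igkc moves from -1.41 to -0.02 and Jchain from -4.81 to 0.88, Ccl5, Chil3 and Cxcl10 change sign, and Malat1, Trbc2 and the ribosomal-like genes stay where they were.

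Without the high-depth and secreting barcodes 17 of 2413 genes were called, 1 higher and 16 lower, of which 14 were among the 36. Malat1, a nuclear long non-coding RNA, was one of them, with 11306 CPM in Lag3KO_CD45 1, against 14087 and 16148 in the WT libraries (-0.49 ± 0.08 with all members and -0.50 without them). Genes with ribosomal protein names were among them. Rps27rt had 2325 CPM in Lag3KO_CD45 1, against 3024 and 4599 (-0.78 ± 0.14), and the unnamed gene Gm9843 2021 against 3141 and 2912 (-0.65 ± 0.15). Wdr89, Gm2000, Gm17430, Rps12-ps3 and Rpl35 were lower as well, by 0.76 to 1.87 on the log2 scale; ribosomal genes have near-identical copies between which reads can be split, so these levels are uncertain. Rpl35 had 675 CPM in Lag3KO_CD45 1, against 1821 in WT_CD45 1 and 615 for the library labelled WT_CD45 2, so it was called although Lag3KO lay between the WT libraries.

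The remaining calls without those barcodes included myeloid genes. AU020206 had 15.8 CPM in Lag3KO_CD45 1, against 136 and 75.6, and Wfdc17, a secreted protein of myeloid cells, 19.7 CPM against 64.8 and 137, with 51.1% of its UMIs in 1 barcode of the library labelled WT_CD45 2. AA467197 was lower as well, at 75.0 CPM in Lag3KO_CD45 1, against 165 and 222. Its log2 difference was -1.44 with all members and -3.96 without the high-depth and secreting barcodes. With all members 16 of its 19 Lag3KO UMIs lay in 1 barcode. The library labelled WT_CD45 2 held the barcode with most of its UMIs (40.4%). Tyrobp and Ifitm3 were called lower without the high-depth and secreting barcodes but not with all members, where Tyrobp had 332 CPM in Lag3KO_CD45 1, against 265 and 515. The 17 calls include Lyz2, which the rule limits and from which nothing is read. Myeloid marker RNA moved with the libraries and with single barcodes, and its part in these calls was not tested.

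Of 18 tested genes of the B cell receptor complex and its proximal signalling, 1 was called. This was Cd52, which is a surface glycoprotein and no part of that complex. The list had 7 positive and 11 negative log2 differences, with a median of -0.03. Over all genes 1311 were positive and 1345 negative, with a median of -0.0062. Cd79a (-0.05) and Cd79b (-0.20) of the rule are among the 11 negative ones and enter the median, so nothing is read from this split. Cd22, an inhibitory co-receptor, had 126 CPM in Lag3KO_CD45 1, against 141 and 104 in the WT libraries. Of 16 tested B cell transcription factors 0 were called by edgeR. Ikzf1 had 82.9 CPM in Lag3KO_CD45 1, against 171 and 142 (edgeR adjusted p = 0.438), and Irf8 509 CPM against 283 and 340 (edgeR adjusted p = 0.605).

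Antigen presentation genes differed little by library. MHC class II genes summed to 27188 CPM in Lag3KO_CD45 1, 27495 in WT_CD45 1 and 27247 for the library labelled WT_CD45 2, and 0 of 12 tested genes were called. Cd74, the invariant chain, had 12866 CPM in Lag3KO_CD45 1, against 13586 and 13401 (-0.14 ± 0.08). H2-Aa had 4149 against 4426 and 4027 CPM, so Lag3KO lay between the WT libraries. Individual class II genes differed more between cell classes: H2-DMb2, a chain of the peptide-loading catalyst H2-DM, had 896, 684 and 766 CPM in B cells of Lag3KO_CD45 1, WT_CD45 1 and the library labelled WT_CD45 2, against 66.4, 50.5 and 55.6 CPM in myeloid barcodes. H2-Ob, a chain of the inhibitor H2-O, had 407, 289 and 388 CPM in B cells, against 11.3, 7.96 and 9.94 CPM in myeloid barcodes. Whether these class differences exceed chance was not tested, as the classes were chosen by their transcripts.

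**Figure D5:**
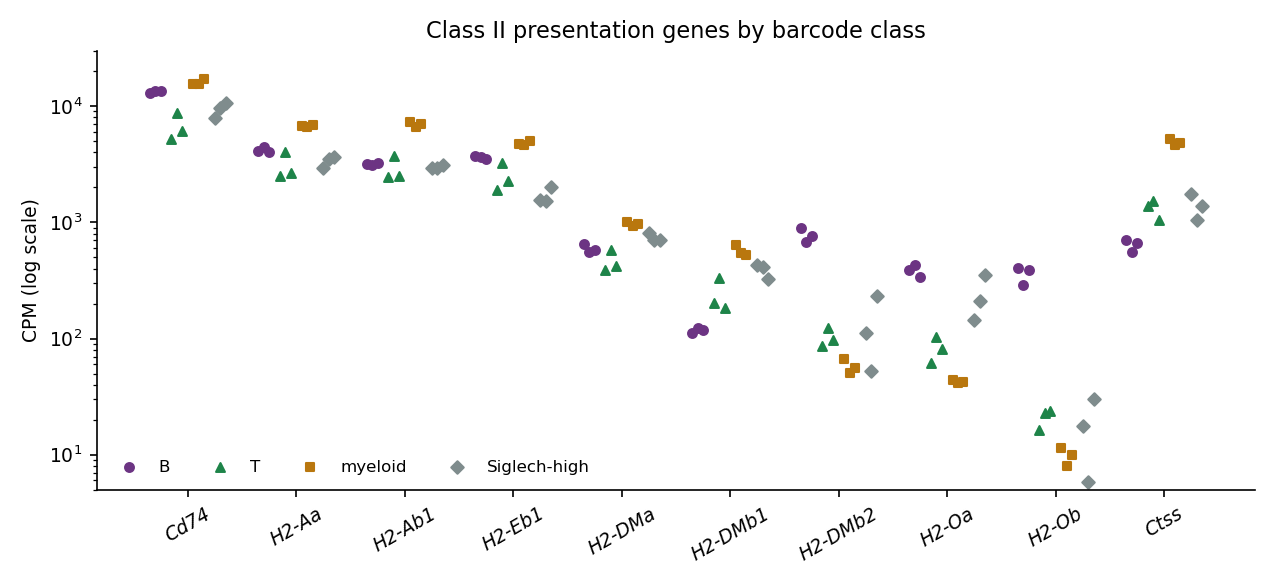
Levels of class II presentation genes in CPM on a log scale, in B, T, myeloid and Siglech-high barcodes. The 3 points of a class are Lag3KO_CD45 1, WT_CD45 1 and the library labelled WT_CD45 2, left to right. Cd74 in B cells (12866, 13586 and 13401 CPM) lies within 2-fold of the myeloid level, while H2-DMb2 and H2-Ob are highest in B cells and Ctss and H2-DMb1 are lower in B cells than in myeloid barcodes.

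Ligands and receptors of T cell help were sparse. Of 12 co-stimulation and checkpoint ligands 6 could be tested and 0 were called; Cd86 had 111 CPM in Lag3KO_CD45 1, against 106 and 66.2, and Cd83 205 against 171 and 147. Of the co-inhibitory receptors and LAG3 partners 6 of 15 could be tested and 0 were called, among them Lgals3, a described LAG3 ligand (158 CPM in Lag3KO_CD45 1, against 118 and 208). Survival receptors were even, with Tnfrsf13c at 186 CPM in Lag3KO_CD45 1, against 165 and 184, and 0 of 7 tested were called. Ltb, a membrane lymphotoxin, was the main cytokine gene (991 CPM in Lag3KO_CD45 1, against 961 and 889). Il10 had 3 UMIs, all in WT_CD45 1, and Tnf 4 UMIs, 3 of them there. Of 12 tested homing genes 0 were called; the chemokine receptor Cxcr3 had a UMI in 10 of 65 members of Lag3KO_CD45 1, 4 of 41 in WT_CD45 1 and 2 of 55 in the library labelled WT_CD45 2, and the log2 difference of 1.49 ± 1.10 did not pass.

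Genes of other B cell states differed in detection. Rag1, Rag2, Vpreb1, Igll1 and Dntt, which act in B cell precursors, were at 0 UMIs. In the age-associated list, which summed to 355, 253 and 364 CPM in Lag3KO_CD45 1, WT_CD45 1 and the library labelled WT_CD45 2, Tbx21 and Itgax were at 0 UMIs and Zeb2 had 23, 8 and 11 UMIs. Of 10 germinal centre genes 2 could be tested and neither was called; 11 of 12 Rgs13 UMIs of Lag3KO lay in 1 barcode. The B-1 list (3 tested) and the follicular and marginal zone list (6 tested) gave 0 calls. The B-1 list summed to 221, 324 and 184 CPM in the same order. Its member Zbtb32 had a UMI in 11 of 65, 11 of 41 and 9 of 55 members, and Cd5 had 1 UMI in all. Fcer2a and Cr2, of follicular and marginal zone cells, had a UMI in 6 and 5 of 65 members in Lag3KO_CD45 1, 4 and 4 of 41 in WT_CD45 1 and 6 and 9 of 55 in the library labelled WT_CD45 2, against 0% of T barcodes. Cell cycle genes summed to 1105 CPM in Lag3KO_CD45 1, against 1132 and 1031, with 0 of 7 called.

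Stress and activation genes leaned one way without passing the test. All 11 tested heat shock genes had a negative log2 difference (median -0.58) and 7 were below both WT libraries, where 27.3% of all genes were; 0 were called. The lowest adjusted p was that of Hsp90b1, a chaperone of the endoplasmic reticulum (146 CPM in Lag3KO_CD45 1, against 418 and 227). Its log2 difference was -1.19 ± 0.36 (edgeR adjusted p = 0.0715), and 1 barcode held 26.9% of its UMIs. The summed heat shock level was 4039 CPM in Lag3KO_CD45 1, against 4833 and 5228 in B cells, and it was also lowest in Lag3KO among T barcodes (4829 against 5799 and 5843), myeloid barcodes (4712 against 5209 and 5582) and Siglech-high barcodes (4942 against 5431 and 6137). Of 18 tested immediate early genes 15 were negative (median -0.43) and 14 below both WT libraries, and 0 were called. Fos had 588 CPM in Lag3KO_CD45 1, against 896 and 756, and Dusp1 142 against 218 and 241. The summed immediate early level was lowest in Lag3KO in B cells (3699 CPM against 4674 and 4439) and T barcodes (5534 against 7011 and 5846). In myeloid barcodes Lag3KO lay between the WT libraries (7366 against 7792 and 6507). In Siglech-high barcodes it was highest (4119 against 3999 and 3831).

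Interferon genes gave 1 call. The type I interferon list summed to 1757 CPM in Lag3KO_CD45 1, 1839 in WT_CD45 1 and 1896 for the library labelled WT_CD45 2 in B cells, against 3696, 5055 and 4337 CPM in T barcodes. Of its 11 tested genes 0 were called. In the interferon gamma list 1 of 15 tested genes was called, Cxcl10 (above), and 10 were above both WT libraries, where 40.7% of all genes were. MHC class I genes (11 tested), glycolysis genes (9 tested) and age-associated B cell genes (3 tested) gave 0 calls, with medians of -0.16, -0.12 and 0.79. Of the markers of other cells, Trbc2 among T cell genes and Chil3 among myeloid genes were called higher, while 0 of 4 tested plasmacytoid and 0 of 3 tested dendritic cell markers were, and the 1 tested gene each of the microglial, NK, neutrophil and neural lists was not called.

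Last, the genotype difference in B cells was set against that in T barcodes of the same libraries in 1 model with the library as a term. Of 9169 genes 13 were called (0.142%), 10 with a larger and 3 with a smaller value in B cells. Without the high-depth and secreting barcodes 8 were called, 1 larger and 7 smaller, and without the high-depth barcodes alone 2 larger and 5 smaller. Cd74 was among them: its log2 difference was 0.47 ± 0.10 higher in B cells, with 12866 CPM in Lag3KO B cells against 13586 and 13401 in WT B cells, and 5202 CPM in Lag3KO T barcodes against 8698 and 6156 in WT T barcodes. Plac8 (0.93 ± 0.18) followed the same form, with 2061 against 1916 and 2037 CPM in B cells and 883 against 1724 and 1434 CPM in T barcodes. In both genes the Lag3KO T barcodes lay below both WT libraries, and the B cell levels lay closer together. Ifi30, a lysosomal thiol reductase, had 797 against 413 and 525 CPM in B cells and 349 against 538 and 378 CPM in T barcodes (1.17 ± 0.28). Ccl17, Ccl5, Cxcl10, Ccl22, Ly6c2, Trbc2 and Elane each had 32.4% to 92.1% of their B cell UMIs in 1 barcode. Without the high-depth and secreting barcodes 1 of the 13 was still called, Lgals1, a galectin (-1.70, edgeR adjusted p = 3.6e-04). The edgeR adjusted p was then 0.0502 for Trbc2, 0.118 for Ifi30, 0.123 for Cd74 and 0.139 for Plac8, which no longer passed.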

How the data were processed

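The files hold counts: the authors deposited raw UMI counts per gene and barcode from 10x 3′ v2 libraries, made with Cell Ranger on GRCm38 (mm10) per the submitters' processing notes, which also name Seurat without a step. The deposited matrices hold called cells only, and their caller is not given in the sources used here. The CD45 files list 28692 genes, 694 more than the CD4 files, mostly immunoglobulin and T cell receptor genes. Barcodes with at least 200 genes and at most 10% mitochondrial UMIs were kept. T barcodes had at least 2 Cd3 UMIs and no Cd79a or Ms4a1, myeloid barcodes more than 60 Lyz2 and C1qb UMIs per 10000, and Siglech-high barcodes at least 2 Siglech UMIs. UMIs were summed per library and class and tested with edgeR 4.0.16 (TMM scaling, filterByExpr, quasi-likelihood, Benjamini-Hochberg) in R 4.3.3, after checks on simulated data. DESeq2 1.42.0, RLE size factors and no filter were alternatives, as were stricter limits, scrublet through scanpy 1.11.5 (the 0.8% of barcodes per 1000 most like simulated doublets removed; no doublets were removed otherwise), and leaving out each WT library. Removing barcodes above 3 times the median depth of the library's members, or with at least 100 UMIs of Igha and Jchain together, was added after seeing the data. Intervals are Clopper-Pearson at 95% and cover counting error only.

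Genes were named by a rule: up to 15 called genes per direction by p, up to 10 called for the difference between classes, the 20 with the highest ratio to other barcodes, and members of 31 gene lists. The members and lists were chosen with earlier results of these data known. The samples were grouped by their titles. Some genes of the lists are not reported here.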

Additional observations from a re-analysis of the deposited data

Results flagged for a closer look

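For 13 genes the genotype difference in B cells differed from that in T barcodes in edgeR's test of the difference itself. On the log2 scale, B cells minus T barcodes, it was 5.46 for Ccl17, 4.22 for Ccl22, 2.70 for Cxcl10, 2.02 for Trbc2, 1.60 for Ly6c2, 1.41 for Ccl5, 1.17 for Ifi30, 0.93 for Plac8, 0.47 for Cd74 and 0.35 for Tmsb4x. It was -3.52 for Elane, -1.96 for Rexo2 and -1.03 for Lgals1. A single barcode held 92.1% of the B cell UMIs of Ccl17, 86.4% of Ccl22, 70.9% of Cxcl10, 59.9% of Elane and 53.9% of Ccl5. Elane was not detected in B cells of WT_CD45 1.

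In data outside the comparisons, WT_CD4 1, a library enriched for CD4 T cells, held 5 barcodes that met the B cell rule, above the 3 counts that a count of 0 allows. The other CD4-enriched libraries held 3, 2 and 1, and nothing particular to WT_CD4 1 is read from this.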

How the results depend on the processing

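The count of 36 genes called in B cells was 3 with DESeq2, 13 with at least 2 Cd79a and 2 Cd79b or Ms4a1 UMIs, 21 with at most 30 Lyz2 and C1qb UMIs per 10000, 17 with at most 5% mitochondrial UMIs, and 13 with doublet-like barcodes removed. It was 19 without high-depth barcodes, 13 without the antibody-secreting barcodes (the same 2 members that the doublet scores removed, so these are 1 alternative in B cells) and 17 without both; it was 33 with RLE size factors, 24 with no filter and 28 with 0 Cd3 UMIs. The count of 13 for B cells against T barcodes was 1 with DESeq2, 3 with RLE size factors, 5 with stricter B cell markers, 7 with 0 Cd3 UMIs, 0 with the stricter myeloid limit (256 at an unadjusted p under 0.05), 8 with the mitochondrial limit, 8 without doublet-like barcodes, 7 without high-depth or without secreting barcodes and 8 without both.

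Igha alone was called under all 11 alternatives. Ccl5 turned to -0.47 with the stricter myeloid limit, -0.71 without high-depth barcodes and -0.73 without both kinds, Chil3 to -0.93 with stricter B cell markers, -1.24 and -1.19, and Cxcl10 to -3.09 and -3.11. Jchain turned to 0.84 with those 2 barcodes removed and to 0.88 without both, and Rpl35 to 0.14 without WT_CD45 1, against -1.43 without the library labelled WT_CD45 2. For the 25 named called genes, 190 of 308 alternative values kept the direction and the call or the size. The share difference was 0.12 points without WT_CD45 1 and 0.82 without the library labelled WT_CD45 2; under the other alternatives it was 0.24 to 0.54 points, less than 1 SD of the WT libraries from 0.47. Leaving out a WT library leaves no residual degrees of freedom, so only differences were computed and the counts have no such value.

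No paired analysis was possible because the groups compared share fewer than 2 replicate numbers. Adding B cells of the CD4 libraries was not run, since none held 10. With 41 to 65 barcodes a library, genes below the filter were not tested.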

Other observations

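Lambda constant transcripts were found in B cells that used kappa. Members called kappa had a median of 28 kappa and 10 lambda constant UMIs in Lag3KO_CD45 1, 35 and 9 in WT_CD45 1, and 28 and 7.5 in the library labelled WT_CD45 2. Members called lambda had a median of 30.5, 58 and 20 lambda and 6, 4 and 2.5 kappa UMIs. Iglc3 had 1433, 1232 and 1016 CPM in B cells of Lag3KO_CD45 1, WT_CD45 1 and the library labelled WT_CD45 2, against 0.891, 0.731 and 1.17 CPM in T barcodes; reads can be split between Iglc3 and its near copy Iglc2. Siglech-high barcodes also held Iglc3 (909, 1102 and 1336 CPM), with Igkc at 342, 482 and 426 CPM. Ly6d had 1998, 1921 and 1891 CPM in B cells and 3655, 4627 and 5175 CPM in Siglech-high barcodes, against 4.01 to 4.75 CPM in T barcodes.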
